A study of Mus musculus with 8 samples.

Results

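Nuclear genes of the mitochondrial respiratory chain were followed in ileum RNA of LGR5-null mouse embryos against wild-type embryos. The genes were taken by symbol from the platform annotation, namely every symbol beginning with Nduf, Uqcr or Atp5, the Cox4 to Cox8 families, the Sdh subunits, Cycs and Cyc1. This gave 81 genes of 15123 with a symbol, measured by 110 probes, of which 57 genes had 1 probe and 24 several. They comprised 28 genes of complex I, 5 assembly factors of complex I, 3 genes of complex II, 9 of complex III, Cycs, 18 of complex IV and 17 of complex V. Ndufa4, named for complex I, was counted with complex IV, to which its protein is now assigned.

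The respiratory chain passes electrons from NADH (complex I) and succinate (complex II) through complex III and cytochrome c to oxygen at complex IV, and pumps protons across the inner mitochondrial membrane. Complex V, the ATP synthase, uses that gradient to make ATP. Most subunits are encoded in the nucleus, and the intestinal epithelium is known to shift its reliance on respiration as stem cells become absorptive cells.

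Whole ileum of embryos labelled E18.5, late in gestation (up to E19 in the design text), was profiled on MEEBO arrays, glass slides carrying 70-base mouse oligonucleotides. An LGR5-/- embryo and an LGR5 +/+ embryo formed a pair. There were 4 pairs from 3 couples of heterozygous parents, and each pair was hybridised on 2 arrays with Cy5 and Cy3 exchanged. LGR5 is a Wnt pathway receptor of intestinal stem cells, and the study asks about cell lineage choice in the fetal gut without it. The sources used here do not give the kind of null allele, the strain, or which pairs share parents. Values are log ratios, taken as log2 and as null over wild type, since the null sample is channel 1 of every array in the labels. The direction is likely rather than stated: Lgr5 itself lay between -2.10 and -0.79 on the 8 arrays, with pair values of -1.61, -0.92, -1.92 and -1.93. A ratio carries no level, so the tissue could not be checked against the abundance of its markers. In whole tissue, fewer cells of a type and less RNA per cell cannot be told apart. The 2 arrays of a pair correlated at r = 0.309 to 0.779 across all probes. With probes averaged by gene, they correlated over all genes at 0.858, 0.523, 0.528 and 0.412 in pairs 1 to 4. Across the 81 genes described here the values were 0.163, 0.0913, 0.496 and 0.533.

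No respiratory chain gene differed between null and wild-type ileum at the threshold. In limma, with the 4 pairs as replicates, 0 of 81 members had an adjusted p under 0.05, and 0 did so at an unadjusted p under 0.05. Over all 15123 genes 0% passed after adjustment and 6.32% before it. Lgr5 itself, at a mean of -1.59, missed the threshold too (limma adjusted p = 0.656), so the fit did not call even the targeted gene. An ordinary 1-sample test gave 0 members by either measure, and over all genes 0 after adjustment and 818 before it. A fit of all 8 arrays with the pair as a random block gave 0 members and 59 genes after adjustment, and before it 1 member, Ndufaf1, and 1430 genes. Lgr5 was among the 59 (limma adjusted p = 0.00526 in that fit). The median ratio of the members was 0.0069, against 0 over all genes. Of the members 46 had a mean above 0 and 35 below. The same sign in all 4 pairs was seen for 4 members, 4.94%, where the share over all genes was 15.6%.

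A missed threshold does not show equality, so the width of the estimates matters. The 95% interval of the mean lay within 0.25 of 0 on the log2 scale for 66 of 81 members, 81.5%, and for 71.6% of all genes. The 15 members with a wider reach included the assembly factor Ndufaf1 (-0.82 to 0.13), the complex IV subunits Cox6c and Cox7a2, and Atp5md. Means over the members ran from -0.35, that of Ndufaf1, to 0.16, that of Ndufb11, or from 0.787-fold to 1.12-fold. The plot of mean ratios by complex shows most points close to 0.

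**Figure D1:**
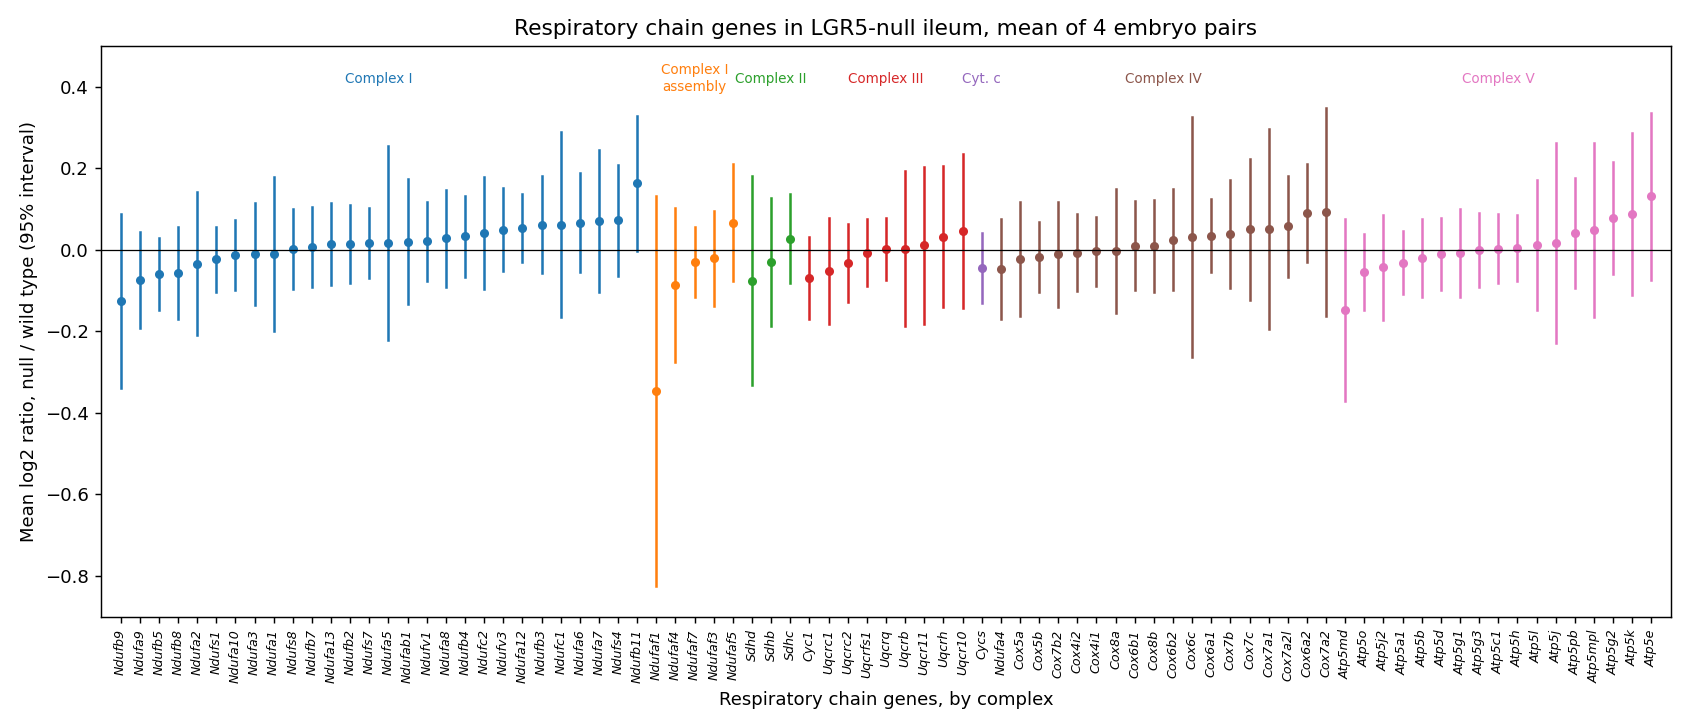
Mean log2 ratio of null over wild type (vertical axis) for each of the 81 genes (horizontal axis), coloured by complex; bars are moderated 95% intervals over 4 pairs. Every interval includes 0, and the widest is that of Ndufaf1.

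In complex I, the entry point for electrons from NADH, the catalytic subunits lay close to 0. Ndufv1, the flavin subunit that accepts those electrons, had pair ratios of 0.033, 0.10, -0.031 and -0.022, a mean of 0.021 ± 0.063 (SD, n = 4). Ndufs1, the largest iron-sulfur subunit, gave -0.035, -0.021, 0.019 and -0.056, with a 95% interval of -0.10 to 0.057. In both genes the pairs fell on either side of 0. Ndufs7 and Ndufs8, iron-sulfur subunits further along the path, had means of 0.016 ± 0.046 and 0.0020 ± 0.064.

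The accessory subunits of complex I, which surround the catalytic core, held its highest and lowest means. Ndufb11 gave 0.31, -0.044, 0.21 and 0.18 (mean 0.16 ± 0.15, SD, n = 4, limma adjusted p = 0.789). Pair 2 alone was below 0, and the 95% interval was -0.0021 to 0.33. Its arrays with the null sample in Cy5 read higher in every pair than their dye-swapped partners, by 0.35 on average. Ndufs4, needed for a stable complex I, had a mean of 0.073 ± 0.12. At the other end, Ndufb9 gave -0.032, -0.12, 0.059 and -0.40, where the value of pair 4 rested on arrays at -0.76 and -0.054. Ndufa9 gave -0.049, -0.034, -0.0015 and -0.21 and was below 0 in all 4 pairs, and Ndufa12 was above 0 in all 4, at 0.0030, 0.043, 0.086 and 0.081. Neither passed the threshold, with adjusted p of 0.82 and 0.819 in limma. Ndufab1, the mitochondrial acyl carrier protein, gave 0.22, -0.0030, -0.084 and -0.049, above 0 in pair 1 alone.

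The widest gene of all was an assembly factor. Ndufaf1, a chaperone that helps build the membrane arm of complex I, read 0.041 and -0.15 in pair 1, 0.19 and 0.14 in pair 2, -0.57 and -0.86 in pair 3 and -0.75 and -0.81 in pair 4 (null sample in Cy5 first). Pairs 3 and 4 were thus low on both arrays while pairs 1 and 2 were near or above 0. Its mean of -0.35 ± 0.47 (SD, n = 4) had a limma adjusted p of 0.817, and a single probe measured it. Ndufaf4, another complex I assembly factor, stood at -0.34 in pair 1 as the mean of 2 probes that disagreed there, at -0.62 and -0.054. Ndufaf3 and Ndufaf5 had means of -0.021 ± 0.091 and 0.066 ± 0.12, and Ndufaf7 had -0.030 ± 0.047.

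Complex II oxidises succinate and belongs to the TCA cycle as well. Its iron-sulfur subunit gene Sdhb gave 0.17, -0.13, -0.047 and -0.11, and the anchor genes Sdhc and Sdhd gave 0.11, -0.046, 0.082 and -0.040 and 0.19, -0.17, -0.37 and 0.043. All 3 were above 0 in pair 1 and below 0 in pair 2. Their means were -0.030 ± 0.14, 0.027 ± 0.082 and -0.076 ± 0.25 (SD, n = 4). Sdha was not analysed here.

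Complex III hands electrons to cytochrome c. Cyc1, its cytochrome c1, gave -0.059, -0.088, 0.017 and -0.15 (mean -0.069 ± 0.068, SD, n = 4), the lowest mean of the complex, followed by Uqcrc1, a core protein, at -0.052 ± 0.11. Uqcr10 and Uqcrh, small subunits, had its highest means, 0.046 ± 0.17 and 0.033 ± 0.16. Uqcrfs1, the Rieske iron-sulfur protein, and Uqcrq varied little, with means of -0.0066 ± 0.035 and 0.0021 ± 0.024. All 9 genes were below 0 in pair 2. Cycs, the mobile carrier itself, gave -0.086, -0.013, -0.085 and 0.0040 with a 95% interval of -0.13 to 0.042.

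Complex IV, cytochrome c oxidase, has catalytic subunits encoded in mitochondrial DNA, which were not analysed here, and nuclear subunits that come in tissue forms. Cox4i1, the general form of the largest nuclear subunit, gave 0.011, -0.029, -0.043 and 0.046, a mean of -0.0041 ± 0.041 (SD, n = 4) with an interval of -0.088 to 0.080. Its alternative form Cox4i2, known from lung, gave -0.0071 ± 0.059. The forms known from heart and skeletal muscle were Cox6a2 at 0.090 ± 0.096, Cox7a1 at 0.050 ± 0.23 and Cox8b at 0.010 ± 0.086. Their general partners Cox6a1, Cox7a2 and Cox8a stood at 0.035 ± 0.052, 0.093 ± 0.25 and -0.0031 ± 0.13. The muscle form minus its partner averaged 0.055 ± 0.11 for Cox6a, -0.042 ± 0.14 for Cox7a and 0.013 ± 0.058 for Cox8, in each case less than its SD between pairs. Cox6a2 was above 0 in 3 of 4 pairs, at -0.031, 0.11, 0.20 and 0.080. Of 11 measured striated muscle markers 9 had a mean above 0, with pair medians of 0.090, 0.30, 0.19 and 0.22, and their part in the muscle forms was not tested.

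The testis forms Cox6b2 and Cox7b2 gave 0.025 ± 0.10 and -0.011 ± 0.11 (SD, n = 4), beside 0.0097 ± 0.082 for Cox6b1 and 0.038 ± 0.11 for Cox7b. Cox7a2l, a relative that joins complexes III and IV into supercomplexes, stood at 0.058 ± 0.10. Ndufa4 and Cox5a had the lowest means of complex IV, -0.047 ± 0.10 and -0.021 ± 0.12. How far the probes separate isoforms, and genes from their processed copies in the genome, was not measured. Cox8c and Ndufa4l2 were not analysed here.

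In complex V the alpha and beta subunits of the catalytic head had pair ratios near 0. Atp5a1 gave -0.0055, -0.040, -0.012 and -0.067, below 0 in all 4 pairs by a small amount, and Atp5b gave -0.024, 0.064, -0.087 and -0.031. Their 95% intervals were -0.11 to 0.047 and -0.12 to 0.077. Some of these ratios averaged arrays of opposite sign. Atp5b read 0.16 and -0.21 in pair 1 and 0.31 and -0.18 in pair 2, and Atp5a1 0.094 and -0.10 in pair 1 (null sample in Cy5 first). Atp5o, the subunit that ties the catalytic head to the stator stalk, was also below 0 in all 4 pairs, at -0.030, -0.14, -0.0060 and -0.044. The c ring, the proton-driven rotor, is encoded by Atp5g1, Atp5g2 and Atp5g3, which make the same mature protein. They stood at -0.0079 ± 0.078, 0.078 ± 0.12 and -0.00080 ± 0.055 (SD, n = 4). Atp5g2 gave -0.027, -0.019, 0.18 and 0.18, higher in pairs 3 and 4 than the others were in any pair.

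The highest means of complex V were those of Atp5e, the epsilon subunit of the rotor, at 0.29, -0.15, 0.20 and 0.18, and Atp5k, the e subunit of the membrane part, at 0.048, -0.16, 0.21 and 0.25. Both were below 0 in pair 2 alone. The lowest was that of Atp5md, a small membrane subunit, at -0.15 ± 0.21 (SD, n = 4). Its 2 probes disagreed, with pair ratios of -0.65, -0.077, 0.070 and -0.56 on the first and -0.015, -0.32, 0.25 and 0.13 on the second.

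The members' medians differed between pairs (SD 0.056) by more than their overall median of 0.0069. The median ratio was -0.024, -0.053, 0.070 and 0.033 in pairs 1 to 4, where all genes had -0.0015, -0.0045, 0.0020 and 0. The sign of the median, though not of each gene, held on both arrays of each pair. The medians were -0.0035 and -0.050 in pair 1, -0.036 and -0.081 in pair 2, 0.042 and 0.10 in pair 3, and 0.020 and 0.050 in pair 4. Single genes had the same sign on both arrays for 42, 47, 56 and 52 of the members in pairs 1 to 4. Pair 2 had 15 of 81 members above 0, pair 1 had 31, pair 4 had 53 and pair 3 had 61. Complex by complex, pair 2 had the lowest median in complexes I to V and pair 3 the highest in complexes I, IV and V. Complex V, for example, had pair medians of -0.021, -0.11, 0.051 and 0.021, and complex IV -0.034, -0.070, 0.11 and 0.086.

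**Figure D2:**
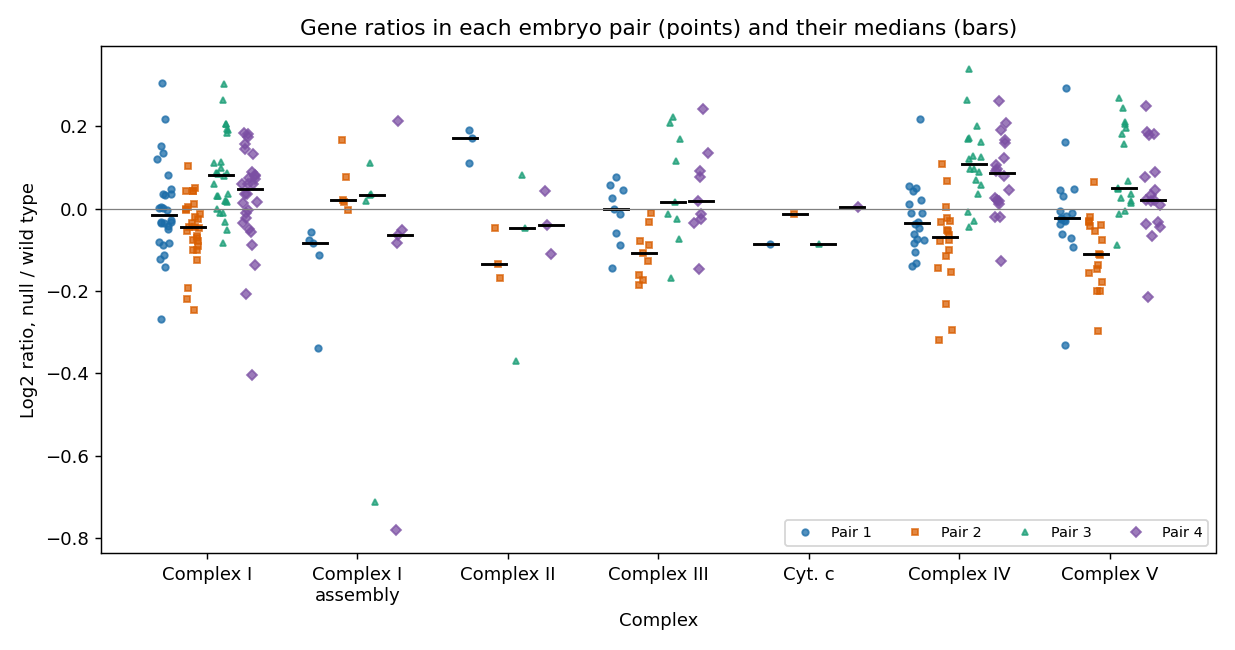
Log2 ratio of null over wild type (vertical axis) of each gene, by complex (horizontal axis); symbols and colours mark the 4 embryo pairs and black bars their medians. In complexes III and V pair 2 lies mostly below 0, and Ndufaf1 accounts for the lowest points in pairs 3 and 4.

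A moderated F-test in limma asked which genes differed between pairs beyond the disagreement of dye-swapped arrays. This yardstick holds technical error alone, and normal differences among embryos may exceed it. It called 20 of 81 members, 24.7%, against 30.9% of all genes. The order of these shares depended on pair 1: without it the test called 9 members, 11.1%, and 7.41% of all genes. Without pair 2 it called 10 members, 12.3%, and 20.7% of all genes, and with no dye term 12, 14.8%, and 20.5%. Of the 20, 13 were lowest in pair 2 and 14 highest in pair 3, where 1251 and 1118 of the 4673 genes called over the array were so.

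Of the 20, the 6 that ranged most began with Ndufaf1, described above (adjusted p of the limma F-test = 0.000867). Cox6c, a small subunit of complex IV, read -0.16 and -0.0080 in pair 1, -0.44 and -0.19 in pair 2, 0.12 and 0.41 in pair 3 and 0.23 and 0.30 in pair 4 (null sample in Cy5 first). Cox7a2, beside it in the same complex, read -0.062 and 0.17 in pair 1, -0.33 and -0.13 in pair 2, 0.21 and 0.47 in pair 3 and 0.22 and 0.19 in pair 4. In both genes every array of pair 2 was below every array of pairs 3 and 4. Atp5j, coupling factor 6 of the ATP synthase stalk, had pair ratios of 0.046, -0.30, 0.27 and 0.046. Ndufc1 and Ndufa5, accessory subunits of complex I, gave 0.083, -0.22, 0.30 and 0.080 and -0.083, -0.25, 0.27 and 0.13. The adjusted p of these 5 in the limma F-test ran from 0.00392 to 0.0435. Apart from Ndufaf1 they shared a low pair 2 and a high pair 3, and their means over the 4 pairs were 0.032, 0.093, 0.017, 0.061 and 0.017.

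**Figure D3:**
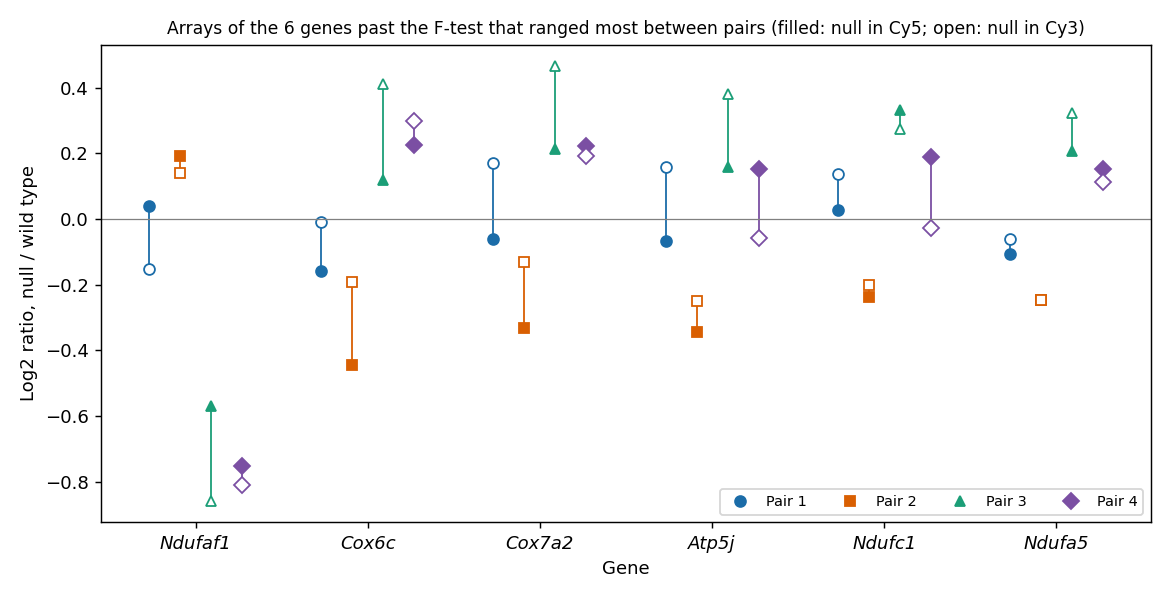
Log2 ratio of null over wild type (vertical axis) on each of the 8 arrays for the 6 genes with the largest range between pairs among those past the F-test (horizontal axis); filled symbols have the null sample in Cy5, open ones in Cy3, and a line joins the 2 arrays of a pair. Ndufaf1 is low in pairs 3 and 4, whereas the other genes are low in pair 2 and high in pair 3; the symbols of Ndufa5 in pair 2 overlap.

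The pattern of a low pair 2 was then read by the role of the subunit. A ratio below 0 in pair 2 and above 0 in pairs 3 and 4 was found for 40 of 81 members, 49.4%, and for 15.2% of all genes. Among 58 structural and accessory subunits it was found for 36, and among 12 classed here as catalytic for 0. The tissue forms Cox4i2, Cox7a1 and Cox8b and the testis form Cox6b2 showed it too, so it was not confined to the structural group. Cox6a2, Cox7b2 and the assembly factors of complex I did not show it. The 12 bear redox centres or the quinone site, or are the alpha and beta subunits of complex V. Both the pattern and this division of subunits were drawn with the values known, and the counts are a description without a test. A larger share among the members than over all genes follows in part from that choice. The structural group had pair medians of -0.012, -0.077, 0.088 and 0.060, the catalytic group -0.0040, -0.037, -0.013 and -0.028. In pair 3 the catalytic median averaged arrays of opposite sign, -0.069 with the null sample in Cy5 and 0.062 in Cy3. The structural medians there were 0.090 and 0.12. Sdhb was the 1 catalytic gene past the test between pairs (limma adjusted p = 0.0415), with its high value in pair 1. Uqcrb and Uqcr11, small subunits of complex III, gave -0.089, -0.19, 0.21 and 0.077 and -0.14, -0.13, 0.22 and 0.091, where Uqcrfs1 of the same complex gave 0.045, -0.033, -0.014 and -0.024. Across the members, pairs 3 and 4 correlated at r = 0.662 and pairs 2 and 3 at -0.485 (n = 81 genes, which share arrays and dyes). Over all genes the same correlations were 0.197 and -7.6e-05. Ndufaf1, which runs against the pattern, weighs on both member correlations. It stood at 0.17, -0.71 and -0.78 in pairs 2 to 4, where the SDs over members were 0.094, 0.14 and 0.15. The correlations without Ndufaf1 were not computed.

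Markers of other tissues and cell types also differed between the pairs. All 8 liver markers were above 0 in pair 3 and 0 of 8 in pair 2, with pair medians of -0.093, -0.15, 1.95 and 0.50. The 4 measured erythroid markers, all above 0 in pair 3 and 1 of them in pair 2, had medians of 0.37, -0.57, 1.53 and 0.36. The 5 pancreas markers, 5 and 0 above 0 in those pairs, had -0.052, -0.056, 1.96 and 0.13. Enterocyte markers, of which 5 were measured, had 0.29, -0.073, 0.064 and 0.21. Smooth muscle markers had -0.049, 0.095, -0.16 and 0.070. The 8 immediate early genes, which respond fast to handling or stress, had 0.67, -0.12, 0.14 and 0.22. Fibroblast and endothelial markers had medians below 0 in every pair, -0.32, -0.18, -0.14 and -0.43 and -0.14, -0.25, -0.14 and -0.18. At an unadjusted p under 0.05 in limma 5 of 6 and 4 of 6 were lower, against 556 of all 15123 genes. After adjustment 0 passed in that fit, which has the pairs as replicates. With the pair as a random block the fibroblast marker Dcn passed (limma adjusted p = 0.0376). The part of these lists in the respiratory chain values was not tested.

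Of the other mitochondrial gene lists, protein import alone had a median below 0 in pair 2 and above 0 in pairs 3 and 4. None of the listed genes passed the limma test of null against wild type over all genes. The mitochondrial ribosome, 75 genes of the Mrpl and Mrps families, had pair medians of -0.013, 0.025, 0.029 and 0.028. Over all 15123 genes 1105 were higher and 1252 lower in all 4 pairs, against 5 and 1 of the 75 in this ribosome. Mrpl50 and Mrpl38 had its largest means in size, -0.28 ± 0.59 and -0.17 ± 0.58 (SD, n = 4), and each rested on 1 array. Mrpl50 read 0.061 and -2.38 on the arrays of pair 3, and Mrpl38 -2.02 and -0.051 on those of pair 4 (null sample in Cy5 first). The TCA cycle list (15 genes) gave 0.046, -0.0025, -0.017 and -0.035, with Pdhb and Pdha1, subunits of pyruvate dehydrogenase, at 0.14 ± 0.27 and -0.12 ± 0.22. Pdha1 likewise rested on 1 array of pair 3, where the arrays read 0.062 and -0.90. Fatty acid oxidation (14 genes) stood out in pair 1, where all 14 were above 0, and had medians of 0.12, -0.070, -0.037 and -0.044. Its largest means were those of the dehydrogenases Hadh and Etfdh, 0.084 ± 0.20 and -0.075 ± 0.21. Other assembly factors (18 genes) gave 0.071, -0.010, -0.019 and 0.014, with Acad9, needed for complex I, at 0.13 ± 0.29 and Cox10, which makes heme O, the precursor of heme A, at -0.12 ± 0.21. Each of these genes had an SD above the size of its mean.

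Among 12 regulators of mitochondrial biogenesis 10 had a mean above 0, with pair medians of 0.069, 0.023, 0.017 and 0.061. Nrf1, a transcription factor of respiratory genes, gave 0.073, 0.040, 0.29 and -0.018, and Tfb2m, a factor of mitochondrial transcription, -0.0057, 0.054, -0.48 and -0.12. The arrays of pair 3 read -0.13 and -0.83 for Tfb2m. Protein import (21 Timm and Tomm genes) had medians of -0.021, -0.011, 0.028 and 0.026, with Timm10 at -0.25 ± 0.41 and Timm17b at -0.088 ± 0.20 (SD, n = 4). The mean of Timm10 rested on 1 array of pair 3, where the arrays read -0.030 and -1.67. Of 7 carriers and channels, 1 was higher and 2 were lower at an unadjusted p under 0.05 in limma, against 400 and 556 of all 15123 genes. Slc25a3, the phosphate carrier that feeds the ATP synthase, gave 0.15, 0.012, 0.32 and 0.30 (adjusted p over all genes = 0.738). Its sign in all 4 pairs holds only for the average of the orientations, since the arrays read 0.46 and -0.17 in pair 1 and 0.22 and -0.20 in pair 2. Ckmt2, the mitochondrial creatine kinase of muscle, gave -0.26, 0.036, -0.29 and -0.28 (adjusted p = 0.748). Ckmt1, the other lower gene, gave -0.0315, -0.25, -0.20 and -0.092 and was below 0 on all 8 arrays (limma adjusted p = 0.748).

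Glycolysis, the route to ATP outside mitochondria, was low in pair 1, where 4 of 14 genes were above 0. Its pair medians were -0.20, 0.092, 0.093 and -0.046, with Hk1, a hexokinase, at -0.15 ± 0.20 and Pfkl, a phosphofructokinase, at 0.11 ± 0.38 (SD, n = 4). The cytosolic ribosome, 69 genes had medians of -0.032, 0.089, 0.11 and 0.13, so pair 2 was not its low pair. With the null sample in Cy3, however, that median was -0.037 in pair 2, against 0.19 in Cy5. Of the 69, 63 had a mean above 0, and 13 were higher and 0 lower at an unadjusted p under 0.05 in limma. Over all 15123 genes 400 were higher and 556 lower at that p. Among the 13, Rpl29 read 0.28 to 0.38 with the null sample in Cy5 and -0.17 to -0.040 in Cy3. Its sign thus holds only for the average of the orientations. Of the 13, only Rpl8 and Rps3 were above 0 on all 8 arrays, and each of the others had an array below 0. Of the 69, Rpl3 and Rps21 had the largest means in size, -0.22 ± 0.47 and 0.21 ± 0.41. Rpl3 rested on pair 1, at -0.92 and -0.93 on its arrays.

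**Figure D4:**
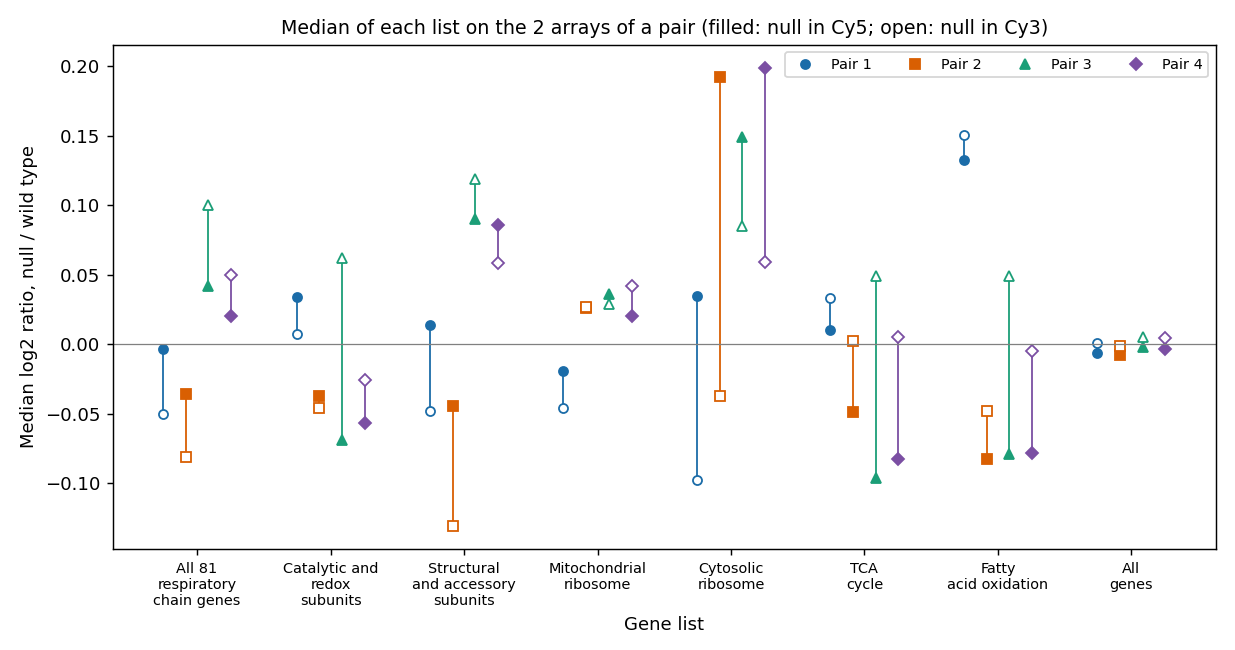
Median log2 ratio of null over wild type (vertical axis) of each gene list (horizontal axis) on the 2 arrays of each pair; filled symbols have the null sample in Cy5, open ones in Cy3. Structural respiratory chain subunits are below 0 in pair 2 and above 0 in pairs 3 and 4 on both arrays, and the cytosolic ribosome differs most between the dyes.

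Dye orientation shifted some members. The dye term passed in limma for 3 of 81 members, against 1.53% of all genes. They were Atp5c1, the gamma subunit of the ATP synthase rotor, and the complex I subunits Ndufv3 and Ndufa12. All 3 read higher with the null sample in Cy5, by 0.28, 0.30 and 0.42. In Ndufa12 the shift exceeded the mean over pairs, 0.053, and its sign in all 4 pairs holds only for the average of the orientations.

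Promoters were read for what the members share in sequence. RefSeq (GRCm38.p6) gave a window from 250 bases before to 50 after a start for 67 of the 81 genes. It was searched on both strands for GCGCA and GCGC with any 1 base between, the core of the NRF1 site, CCGGAAG, an ETS site bound by GABPA, and AAGATGGC, a YY1 site, factors known for respiratory genes. The NRF1 letters occurred for 15 members, 22.4%, and for 8.25% of the 12213 genes on the array with a window. The GABPA letters occurred for 23.9% and 14.4%, and the YY1 letters for 13.4% and 3.97%. At least 1 of the 3 was present for 52.2% of members and 23.6% of those array genes. Of the 18 members with a window that passed the test between pairs 13 had a match, and of the other 49 there were 22, which is a description without a test.

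The 5 members whose window held 2 kinds of match are shown, because they include both steady and variable genes. Each line gives the 200 bases before the start, 5′ to 3′ on the gene's strand, with matches in capitals. All 5 genes lie on the minus strand of GRCm38.p6, with Atp5h at chr11:115419920-115420119, Cox6a1 at chr5:115348959-115349158, Atp5j at chr16:84834977-84835176, Atp5k at chr5:108434400-108434599 and Sdhd at chr9:50603850-50604049.
Atp5h: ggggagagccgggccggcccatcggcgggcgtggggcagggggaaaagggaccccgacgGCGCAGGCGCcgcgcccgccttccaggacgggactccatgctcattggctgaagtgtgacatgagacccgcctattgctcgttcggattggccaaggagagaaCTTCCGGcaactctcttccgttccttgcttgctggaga
Cox6a1: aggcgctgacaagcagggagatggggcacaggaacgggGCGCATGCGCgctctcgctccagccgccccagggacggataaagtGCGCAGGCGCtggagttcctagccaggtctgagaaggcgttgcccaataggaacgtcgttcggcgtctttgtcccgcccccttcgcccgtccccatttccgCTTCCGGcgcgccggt
Atp5j: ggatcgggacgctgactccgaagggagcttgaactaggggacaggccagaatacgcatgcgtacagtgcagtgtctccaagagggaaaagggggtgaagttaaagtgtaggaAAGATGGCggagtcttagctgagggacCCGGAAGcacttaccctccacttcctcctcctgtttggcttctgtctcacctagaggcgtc
Atp5k: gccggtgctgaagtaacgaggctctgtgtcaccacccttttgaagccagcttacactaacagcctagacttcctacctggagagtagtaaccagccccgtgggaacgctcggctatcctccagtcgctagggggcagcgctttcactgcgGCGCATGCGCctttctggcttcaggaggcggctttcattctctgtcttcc
Sdhd: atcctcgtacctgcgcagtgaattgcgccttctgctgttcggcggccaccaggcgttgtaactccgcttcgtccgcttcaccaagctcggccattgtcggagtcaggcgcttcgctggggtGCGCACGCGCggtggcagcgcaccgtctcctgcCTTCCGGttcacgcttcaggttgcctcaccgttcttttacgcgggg

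Atp5h, the d subunit of the ATP synthase stalk, and Cox6a1 carry NRF1 letters and the GABPA letters on the other strand, and were steady. Their pair ratios were -0.011, -0.029, 0.051 and 0.0085 for Atp5h and -0.0097, 0.067, -0.0087 and 0.092 for Cox6a1. Atp5k, with an NRF1 match printed and a GABPA match past its start, and Atp5j, with YY1 and GABPA matches, spanned 0.41 and 0.57 between pairs. Sdhd, with NRF1 and GABPA matches, spanned 0.56 but did not pass the test between pairs (limma adjusted p = 0.0802). A match is a stretch of letters and not a measured binding site.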

How the data were processed

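RNA of null and wild-type ileum was compared on 8 2-colour arrays, 2 for each of 4 pairs. The deposited values are 1 log ratio per probe and array, made by the authors and taken here as log2; the sources used here do not give the base, the numerator, the normalization or the spot intensities. Array medians lay between -0.002 and 0.002, so values were used as deposited. Of 38467 probes 22941 had 1 symbol in the platform annotation. All 81 members matched RefSeq by gene identifier with the same symbol.

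Probes of a gene were averaged, then the 2 dye-swapped arrays of a pair, which leaves each pair as 1 replicate free of a dye effect. All 15123 genes were fitted in limma 3.58.1 (R 4.3.3; lmFit, eBayes, 2-sided, Benjamini-Hochberg, threshold 0.05), with the mean tested against 0. Differences between pairs used the 8 arrays with a dye term. Both tests were checked on simulated data with independent normal errors and no dye effect, a setting that need not hold for these arrays. With 4 pairs the smallest p of an exact sign-flip test is 0.125. Precision is limited by the number of arrays, and pairs with shared parents are not fully independent. Genes named are the extremes of each complex, the isoform sets, those that ranged most between pairs and the 2 largest means of each other list; others, such as all catalytic subunits and the promoter examples, were chosen with their values known. Members and lists were chosen with earlier results of these data known. Alternatives were the random block, scaling, centring, median over probes, single probes, each dye orientation, an ordinary test and each pair left out.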

Additional observations from a re-analysis of the deposited data

Results flagged for a closer look

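For each gene and each complex median, 88 values in all, a pair was picked out when its gap to the nearest other pair took up more of the range of the 4 than Dixon's 95% critical value. Chance does this for about 1 in 20, or 4.4 of 88, and 2 were found. Ndufb5, an accessory subunit of complex I, stood at 0.015 in pair 3, against -0.088 to -0.079 in the other 3 pairs. The median of complex III stood at -0.11 in pair 2, against -0.0010 to 0.019 elsewhere. Ndufaf1 was not among them, since its pairs lay in 2 groups of 2.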

How the results depend on the processing

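The number of members past the threshold for null against wild type was 0 under each of the 11 alternatives at gene level and in a fit of single probes, and the number over all genes was 0 except with the pair as a random block, where it was 59. The members' median ratio of 0.0069 ranged from -0.014 without pair 3 to 0.025 without pair 2, and was -0.0080 with arrays scaled to a common spread, so its sign depends on these choices while every value stayed within the SD between pairs. Single members changed sign in 114 of 891 refits, and none was called in any. For the test between pairs, the 20 members became 12 with no dye term and 9 to 24 with 1 pair left out, and the 4673 genes became 3106 and 1121 to 4924; the cause was not tested. Spot intensities, which would show dim probes, were not used here.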
